A study of Mus musculus with 8 samples.

Results

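The genes described here are 8 genes of retinoid handling and retinoid response, picked by symbol from a table of 55335 genes. They are the 3 retinoic acid receptors Rara, Rarb and Rarg, the cellular retinoic acid binding proteins Crabp1 and Crabp2, the retinoic acid synthesising enzyme Aldh1a2, the retinoic acid degrading enzyme Cyp26a1 and the retinol transporter Stra6. All 8 were found in the table, and 6 of them had enough reads to be tested. Cyp26a1 and Stra6 did not pass the filter on low counts.

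Expression was measured by polyA RNA-seq in E14 cells, a mouse embryonic stem cell (ESC) line that was grown here in serum with leukaemia inhibitory factor (LIF) and the inhibitors CHIR99021, which acts on GSK3, and PD0325901, which acts on MEK. Every group, the control included, had been infected with a lentivirus carrying a short hairpin RNA (shRNA) and kept under puromycin. The control libraries carried a non-targeting hairpin (NG), and the 3 groups labelled as knockdowns (KD) carried hairpins against Sox2, Hnrnpk or Cdk9, with 2 libraries in each of the 4 groups, described as biological replicates. Which of the hairpins made against a gene was used in a library is not stated. The question addressed by the design is which genes depend on each of these 3 regulators in ESCs.

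Retinoic acid is made from retinol, and in the nucleus it binds retinoic acid receptors that sit on DNA as dimers with retinoid X receptors. The best known binding sites are pairs of hexamer half-sites in the same orientation, and a promoter of Rarb and the promoter of Cyp26a1 are textbook targets, so that both genes belong to the response as well as to the pathway. In ESCs retinoic acid is widely used to drive differentiation.

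The promoters of Rarb and Cyp26a1 are shown because they were the member promoters with a half-site repeat. A RefSeq promoter window of 300 bases, 250 before the start site and 50 from it, was at hand for 7 of the 8 genes, as 14 windows, and none was at hand for Crabp2. Each window was searched on both strands for pairs of half-sites in the same orientation with 5, 2 or 1 bases between them. The consensus AGGTCA was among the 4 half-sites allowed. The hexamer AGTTCA was allowed in either place as well. The remaining pair of forms had a leading guanine, namely GGGTCA on the one hand and, on the other hand, GGTTCA. The 250 bases before the start are given 5′ to 3′ in the direction of the gene, at chr14:16575477-16575726 on the minus strand for Rarb and at chr19:37697558-37697807 on the plus strand for Cyp26a1 (RefSeq, GRCm38.p6). Capitals mark the half-sites.

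Rarb: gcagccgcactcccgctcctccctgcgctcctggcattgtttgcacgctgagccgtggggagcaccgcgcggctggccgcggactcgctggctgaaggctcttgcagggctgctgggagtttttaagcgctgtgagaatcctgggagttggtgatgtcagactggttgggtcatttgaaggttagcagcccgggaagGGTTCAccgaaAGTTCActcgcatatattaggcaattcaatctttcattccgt

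Cyp26a1: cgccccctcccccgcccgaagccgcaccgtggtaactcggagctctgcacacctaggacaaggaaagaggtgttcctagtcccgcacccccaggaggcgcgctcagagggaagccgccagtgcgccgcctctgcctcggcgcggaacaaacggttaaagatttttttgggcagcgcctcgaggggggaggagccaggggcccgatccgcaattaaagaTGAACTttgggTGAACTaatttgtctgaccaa

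In Rarb the repeat ran from position -53 to -37 before the start (chr14:16575513-16575529) and was read on the strand of the gene as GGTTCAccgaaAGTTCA. In Cyp26a1 it ran from -32 to -16 (chr19:37697776-37697792) and was on the opposite strand, where it reads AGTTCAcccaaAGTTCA. Both had 5 bases between the half-sites. This spacing was found in 32 of 32851 windows of all genes (0.0974%), a spacing of 2 in 0.268% and a spacing of 1 in 0.222%. The other 5 members with a window held none of the 3 spacings, which says only that these letters are not in these windows.

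**Figure D1:**
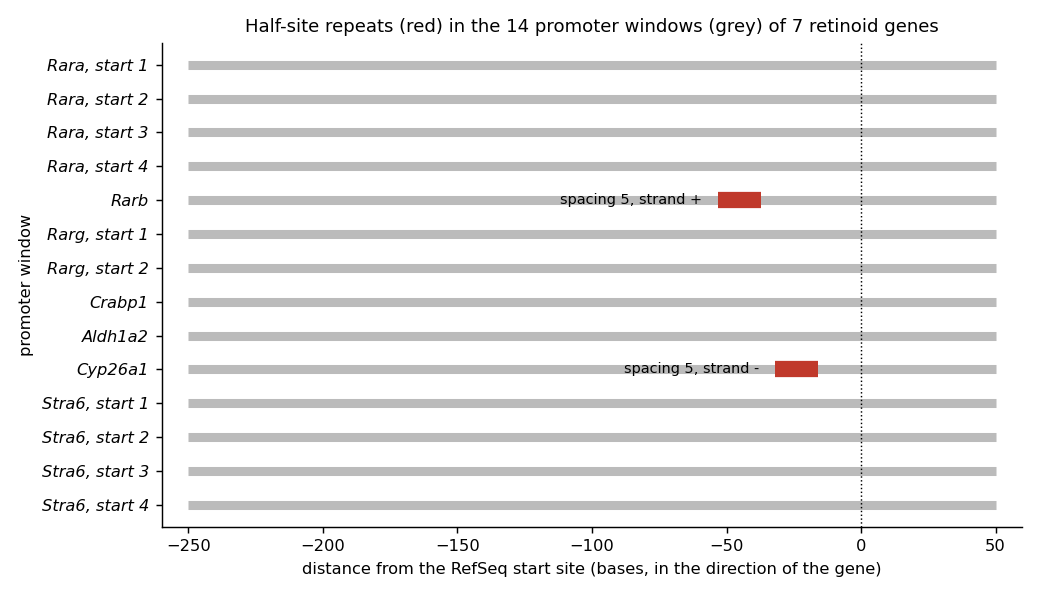
Each grey line is one of the 14 RefSeq promoter windows of 7 member genes, drawn by distance in bases from the start site, and red marks a repeat of half-sites. Only the windows of Rarb (-53 to -37) and Cyp26a1 (-32 to -16) held one.

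Depth differed little between the libraries, with 16709201 to 17719366 counts each, and 16504 of the 55335 genes entered the test (edgeR quasi-likelihood test over all 8 libraries, Benjamini-Hochberg adjustment over all tested genes). A gene was called at an adjusted p under 0.05 with an absolute log2 fold change over 0.6. Where libraries are said to overlap or not, this is description only. With 2 libraries in a group, groups often lie apart without any difference, and the share of all genes that do was not counted. Sox2 was lower in the Sox2-KD libraries, at 320 and 284 counts-per-million (CPM) against 412 and 530 in the control libraries (log2 fold change -0.64, edgeR adjusted p = 0.0479), a call that was lost under 11 of 16 other settings. Cdk9 was at 73.1 and 53.2 CPM in the Cdk9-KD libraries against 109 and 129 in the control (log2 fold change -0.91, edgeR adjusted p = 0.0985). Hnrnpk was at 697 CPM in replicate 1 and 1144 in replicate 2 of the hnRNPK-KD group, against 1094 and 1131 in the control, so that replicate 2 went against its label, and the group is called the shHnrnpk-labelled libraries throughout. The 10 naive pluripotency genes checked, among them Nanog and Esrrb, summed to between 4272 and 5913 CPM in all 8 libraries. In Sox2-KD against the control none of the 10 was called, beside 4.32% of all tested genes. An unadjusted edgeR p under 0.05 was found for 3 of them, beside 19.3% of all tested genes. Their median log2 fold change was -0.15, with 3 of the 10 above 0. Against Cdk9-KD 2 were called lower in Sox2-KD, where 7.33% of all tested genes were called.

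In the control libraries the members covered a wide range of levels per transcript length. Rarg was highest, at 12.3 ± 3.86 CPM per kb of exon (SD, n = 2), followed by Rara at 4.54 ± 0.524 and Crabp1 at 3.11 ± 0.864. Crabp2 (0.770 ± 0.477) and Aldh1a2 (0.502 ± 0.113) came next, and their libraries overlapped. Rarb (0.0430 ± 0.0300), Stra6 (0.0195 ± 0.000237) and Cyp26a1 (0.0142 ± 0.0201) were lowest, and with 8, 4 and 1 counts over both control libraries their order could not be told at this depth. In Sox2-KD, Rarb stood at 0.576 ± 0.121 CPM per kb, within the range of Crabp2 (0.690 ± 0.670) and beside Crabp1 (0.522 ± 0.134), and the libraries of these 3 genes overlapped. Rarg (11.4 ± 2.59) and Rara (4.23 ± 0.449) kept the highest levels there.

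**Figure D2:**
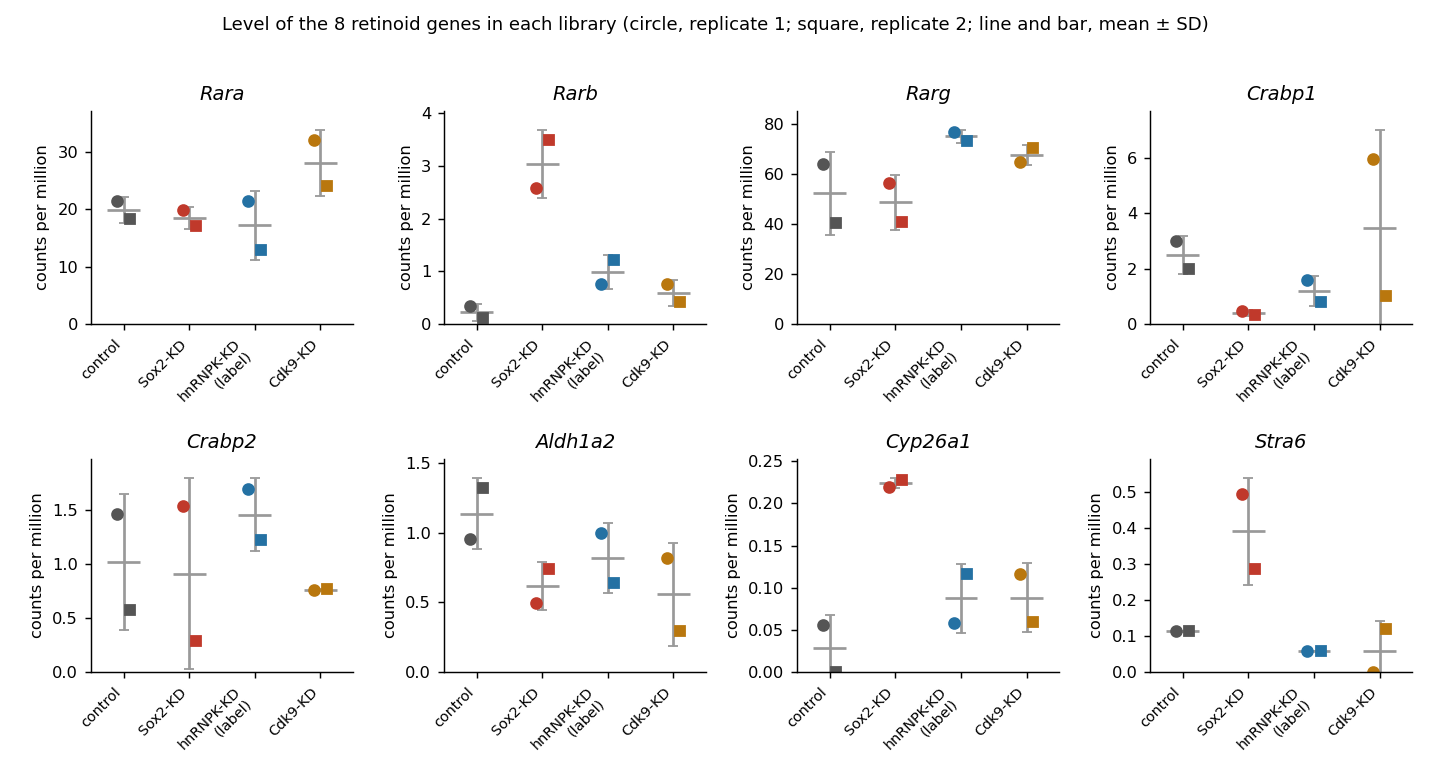
Level of each of the 8 genes in CPM, by group, with one point per library (circle, replicate 1; square, replicate 2) and the mean ± SD in grey, each panel on its own axis from 0. Rarb lies at 2.58 and 3.48 CPM in Sox2-KD and at or under 1.22 CPM in the other 6 libraries, while Crabp1 is lowest in Sox2-KD and differs widely between the Cdk9-KD libraries (5.96 and 1.01 CPM).

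Rarb (chr14:16430839-16819156, minus strand, GRCm38, GENCODE vM21, as for the positions that follow) was the member that rose in Sox2-KD. It is the receptor known for being switched on by retinoic acid itself. Rarb counts were 6 and 2 under the control hairpin against 47 and 61 in Sox2-KD, that is 0.226 ± 0.158 against 3.03 ± 0.635 CPM (SD, n = 2). Both Sox2-KD libraries were far above both control libraries. The log2 fold change was 3.70 (SE 0.59, 95% interval 2.41 to 4.99, edgeR adjusted p = 0.00879). Over the summed counts, 108 against 8, the ratio was 13.3, with an exact binomial interval of 6.52 to 31.6 that covers counting error only. The call rests on few control reads: without control replicate 2 the log2 fold change was 3.13 (edgeR adjusted p = 0.0798), and without Sox2-KD replicate 2 it was 3.47 (edgeR adjusted p = 0.0544).

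Rarb was also above the control in the shHnrnpk-labelled libraries and Cdk9-KD, without passing the test. It had 13 and 21 counts in the shHnrnpk-labelled libraries, both above the control libraries, with a log2 fold change of 2.09 (SE 0.62, edgeR adjusted p = 0.467). The 21 counts were in replicate 2, where Hnrnpk was at 1144 CPM, and the 13 in replicate 1, where Hnrnpk was at 697 CPM. In Cdk9-KD Rarb had 13 and 7 counts, again without overlap, with a log2 fold change of 1.34 (SE 0.66, edgeR adjusted p = 0.519). These comparisons share the 2 control libraries, whose Rarb counts are the lowest of all 8. Without control replicate 1 the log2 fold change in the shHnrnpk-labelled libraries was 3.02, and without control replicate 2 it was 1.52.

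Against the remaining groups, Rarb was again highest in Sox2-KD. It was higher than in Cdk9-KD (log2 difference 2.35, SE 0.52, edgeR adjusted p = 0.0210), and it lost this call without Cdk9-KD replicate 2 (1.98, edgeR adjusted p = 0.127) or Sox2-KD replicate 2 (2.12, edgeR adjusted p = 0.136). Against the shHnrnpk-labelled libraries the log2 difference was 1.60 (SE 0.49, 95% interval 0.53 to 2.68, edgeR adjusted p = 0.0831), which did not pass. In Cdk9-KD against the shHnrnpk-labelled libraries the log2 difference was -0.75 (edgeR adjusted p = 0.916).

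Rarb is a gene whose counts are uncertain in one respect. In GENCODE vM21, 1793 of its 5265 exon bases are shared with exons of Top2b, a DNA topoisomerase gene on the opposite strand, and the strand setting of the counting is not stated. Top2b had 1891 and 1369 counts in the control and 2117 and 1773 in Sox2-KD, values that overlapped (log2 fold change 0.23, edgeR adjusted p = 0.505). Its part in the Rarb counts was not tested. Rarb passed the filter on low counts through libraries outside Sox2-KD too, since 3 of them held 10 or more counts.

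Rara (chr11:98927818-98974942, plus strand), the receptor found in most tissues, was close to the control in Sox2-KD. It had 381 and 318 counts in the control against 361 and 299 in Sox2-KD, which overlapped, with a log2 fold change of -0.10 (95% interval -0.67 to 0.46, edgeR adjusted p = 0.874). In the shHnrnpk-labelled libraries it had 365 and 223 counts, which overlapped the control as well (log2 fold change -0.21, edgeR adjusted p = 0.908). In Cdk9-KD both libraries, at 548 and 405 counts, were above both controls, but the log2 fold change of 0.50 (SE 0.26, edgeR adjusted p = 0.539) did not pass.

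Rarg (chr15:102234938-102257517, minus strand), the receptor with the highest level in these cells, had 1135 and 710 counts in the control and 1030 and 718 in Sox2-KD. The control libraries were further apart than the group means (log2 fold change -0.10, 95% interval -0.59 to 0.39, edgeR adjusted p = 0.858). It had 1310 and 1260 counts in the shHnrnpk-labelled libraries, both above the control, with a log2 fold change of 0.52 (SE 0.22, edgeR adjusted p = 0.592). In Cdk9-KD it had 1112 and 1193 counts (log2 fold change 0.37), which did not pass either. The intervals for Rara and Rarg in Sox2-KD leave room for changes of either sign, none of them near the size seen for Rarb.

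Crabp1 (chr9:54764748-54773110, plus strand) and Crabp2 (chr3:87948666-87953376, plus strand) bind retinoic acid in the cell, where Crabp2 is known to carry it to the nucleus and Crabp1 is linked to its breakdown. Crabp1 had 53 and 35 counts in the control and 9 and 6 in Sox2-KD, a level of 2.49 ± 0.693 against 0.418 ± 0.108 CPM (SD, n = 2). The groups did not overlap, but the log2 fold change of -2.55 (SE 0.79, 95% interval -4.29 to -0.82, edgeR adjusted p = 0.0993) did not pass the threshold. The call changed with the libraries in the fit and with the tool, and Crabp1 stayed uncalled in 9 of 15 other settings. It passed when the fit held only the 4 libraries compared (edgeR adjusted p = 0.0226), without Cdk9-KD replicate 1 (edgeR adjusted p = 0.0242) or replicate 2 (edgeR adjusted p = 0.0218), and in DESeq2 (adjusted p = 0.0218).

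The Cdk9-KD libraries disagreed most on Crabp1, with 102 counts in replicate 1 and 17 in replicate 2, and they enclosed the control libraries (log2 fold change 0.48, SE 0.66, edgeR adjusted p = 0.863). Crabp1 was lower in Sox2-KD than in Cdk9-KD (log2 difference -3.03, SE 0.78, edgeR adjusted p = 0.0412). Without Cdk9-KD replicate 1 that difference was -1.23 (edgeR adjusted p = 0.312), so that 1 library decided its size. The call was also lost without control replicate 1 (edgeR adjusted p = 0.0519) or 2 (edgeR adjusted p = 0.0513) and without Sox2-KD replicate 1 (edgeR adjusted p = 0.124) or 2 (edgeR adjusted p = 0.234). The shHnrnpk-labelled libraries had 27 and 14 counts, both under the control (log2 fold change -1.05, SE 0.70, edgeR adjusted p = 0.787).

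**Figure D3:**
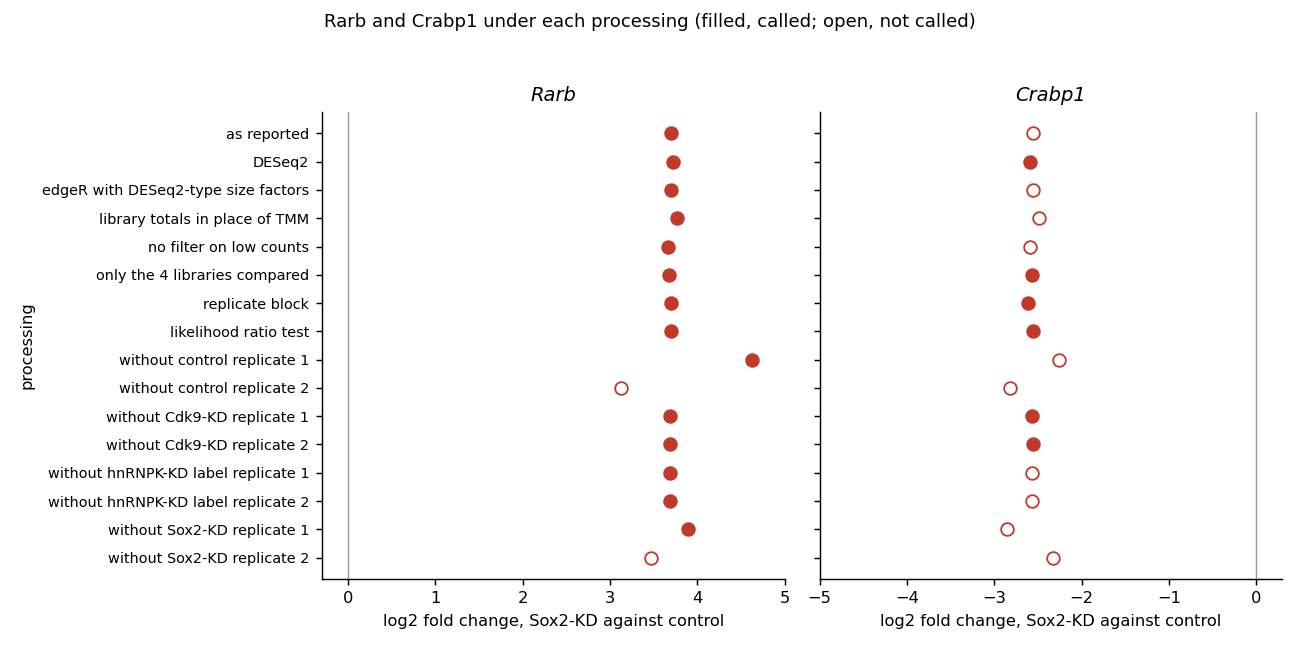
Log2 fold change of Rarb and Crabp1 in Sox2-KD against the control as reported and under 15 other settings (filled, called; open, not called). Rarb lies between 3.13 and 4.62 and Crabp1 between -2.85 and -2.26, so that each keeps its sign while its call comes and goes.

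Crabp2 gave no direction. It had 26 and 10 counts in the control, 28 and 5 in Sox2-KD, 29 and 21 in the shHnrnpk-labelled libraries and 13 and 13 in Cdk9-KD. All 3 groups overlapped the control, and the log2 fold change in Sox2-KD was -0.15 with a 95% interval from -1.67 to 1.37 (edgeR adjusted p = 0.931).

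Aldh1a2 (chr9:71215789-71296243, plus strand), which makes retinoic acid from retinal, was at low counts in every library. It had 17 and 23 counts in the control and 9 and 13 in Sox2-KD, which did not overlap (log2 fold change -0.87, SE 0.56, edgeR adjusted p = 0.440). In Cdk9-KD it had 14 and 5 counts, also below the control (log2 fold change -1.02, SE 0.57, edgeR adjusted p = 0.569). The 17 and 11 counts of the shHnrnpk-labelled libraries overlapped the control (log2 fold change -0.47, edgeR adjusted p = 0.902).

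Cyp26a1 (chr19:37697798-37701536, plus strand), which breaks retinoic acid down and is a usual early marker of its action, was barely detected. It had 1 and 0 counts in the control, 4 and 4 in Sox2-KD, 1 and 2 in the shHnrnpk-labelled libraries and 2 and 1 in Cdk9-KD. The Sox2-KD libraries were the only ones above 3 counts, and the ratio of summed counts, 8 against 1, was 7.89 with an exact binomial interval of 1.06 to 349.9 for counting error alone. With no filter on low counts the edgeR log2 fold change was 2.67 (edgeR adjusted p = 0.456).

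Stra6 (chr9:58063788-58153996, plus strand), the membrane receptor that takes up retinol and is itself induced by retinoic acid in several cell types, was nearly as low. It had 2 and 2 counts in the control and 9 and 5 in Sox2-KD, against 1 and 1 in the shHnrnpk-labelled libraries and 0 and 2 in Cdk9-KD. Both Sox2-KD libraries were above the other 6, and the ratio to the control, 14 against 4 counts, was 3.45 (exact binomial interval 1.08 to 14.4, counting error only). With no filter on low counts the log2 fold change against the control was 1.69 (edgeR adjusted p = 0.559), so that neither of these low genes can be called at this depth.

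**Figure D4:**
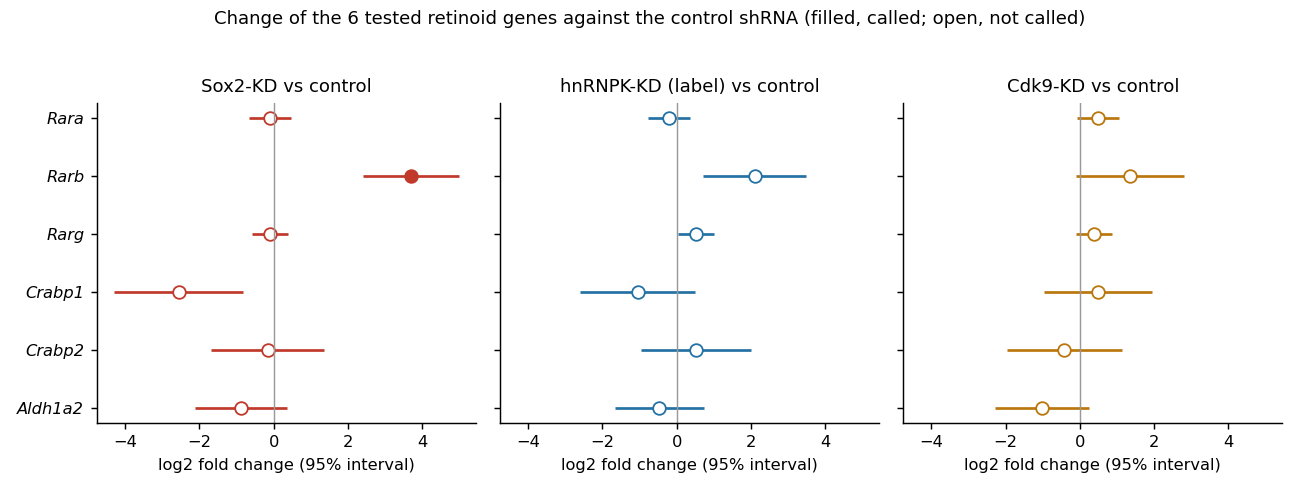
Log2 fold change against the control shRNA of the 6 tested genes, with 95% intervals, in Sox2-KD, the shHnrnpk-labelled libraries and Cdk9-KD (filled, called; open, not called). Rarb in Sox2-KD (3.70) is the one called value, and all 3 panels use the same 2 control libraries.

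Counted over the group, 1 of the 6 tested members was called in Sox2-KD against the control where 4.32% of all tested genes were called (434 higher and 279 lower). An unadjusted p under 0.05 was found for 2 of the 6 and for 19.3% of all tested genes. The median log2 fold change of the 6 was -0.13, beside 0.02 over all tested genes. In the shHnrnpk-labelled libraries, edgeR called 0 members, with 2 (Rarb and Rarg) at an unadjusted p under 0.05, and 0% of all genes, with 1325 genes (8.03%) at an unadjusted p under 0.05. DESeq2 called 0 members and 83 genes there. In Cdk9-KD edgeR called 0 members, 0 of them at an unadjusted p under 0.05, where 10.4% of all genes were, and 0.139% of all genes, and DESeq2 called 0 members and 226 genes.

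Between the groups other than the control, 2 members (Rarb and Crabp1) were called in Sox2-KD against Cdk9-KD, where 7.33% of all genes were called. No member was called by edgeR in Sox2-KD against the shHnrnpk-labelled libraries, where 5.9% of all genes were. Rarb and Rarg had an unadjusted p under 0.05 there, as did 21.3% of all genes. For Rarg the log2 difference was -0.62 (SE 0.22, edgeR adjusted p = 0.132). In Cdk9-KD against the shHnrnpk-labelled libraries, edgeR called 0 members and 0% of genes, with 943 genes at an unadjusted p under 0.05, and DESeq2 called 0 members and 53 genes.

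A wider list of 49 retinoid genes was read for context, of which 35 were tested. In Sox2-KD against the control 2 were called higher and 1 lower, beside 4.32% of all genes, and 8 had an unadjusted p under 0.05, beside 19.3% of all genes. Their median log2 fold change was 0.07. In each of the other comparisons against the control 0 of the 35 were called by edgeR. In the shHnrnpk-labelled libraries 4 had an unadjusted p under 0.05, beside 8.03% of all tested genes. In Cdk9-KD 3 did, beside 10.4% of all tested genes.

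Among the receptor partners and cofactors, 1 of 8 tested genes was called. Nrip1, a corepressor of nuclear receptors, had 241 and 370 counts in the control and 662 and 734 in Sox2-KD (log2 fold change 1.17, SE 0.27, edgeR adjusted p = 0.0372), and lost the call without any 1 of these 4 libraries. Of the receptor partners themselves, Rxra (log2 fold change -0.15, edgeR adjusted p = 0.788) and Rxrb (0.03, edgeR adjusted p = 0.940) were not called, and Rxrg was not tested.

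Of the 21 response genes, 14 were tested, and the 2 called moved in opposite directions. Nr2f2, an orphan nuclear receptor that retinoic acid can induce, had 8 and 12 counts in the control and 168 and 138 in Sox2-KD (log2 fold change 3.89, SE 0.40, edgeR adjusted p = 0.00232). Meis2, a homeobox gene also known as retinoic acid responsive, had 480 and 508 counts in the control and 138 and 115 in Sox2-KD (log2 fold change -1.99, SE 0.36, edgeR adjusted p = 0.0150), and this call too was lost without any 1 of these 4 libraries. Cdx1, an early response gene, was not called (log2 fold change -0.13, edgeR adjusted p = 0.762), and Hoxb1 was not tested.

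In Sox2-KD against the control edgeR called none of the 8 tested genes of synthesis, storage and breakdown or of the 5 tested carriers. An unadjusted p under 0.05 was found for 3 and 0 of them, beside 19.3% of all tested genes. Dhrs3, which turns retinal back into retinol, had 114 and 73 counts in the control and 41 and 50 in Sox2-KD (log2 fold change -1.05, SE 0.32, edgeR adjusted p = 0.0947). Adh7, an alcohol dehydrogenase that can oxidise retinol, was picked out after its values were seen and lay the other way. It had 3 and 1 counts in the control and 13 and 21 in Sox2-KD (log2 fold change 2.99, SE 0.77, edgeR adjusted p = 0.0545). With at most 4 counts in any library outside Sox2-KD, Adh7 passed the filter on low counts only through the Sox2-KD libraries. Rdh10, which makes retinal, was at a log2 fold change of 0.37 (edgeR adjusted p = 0.482).

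**Figure D5:**
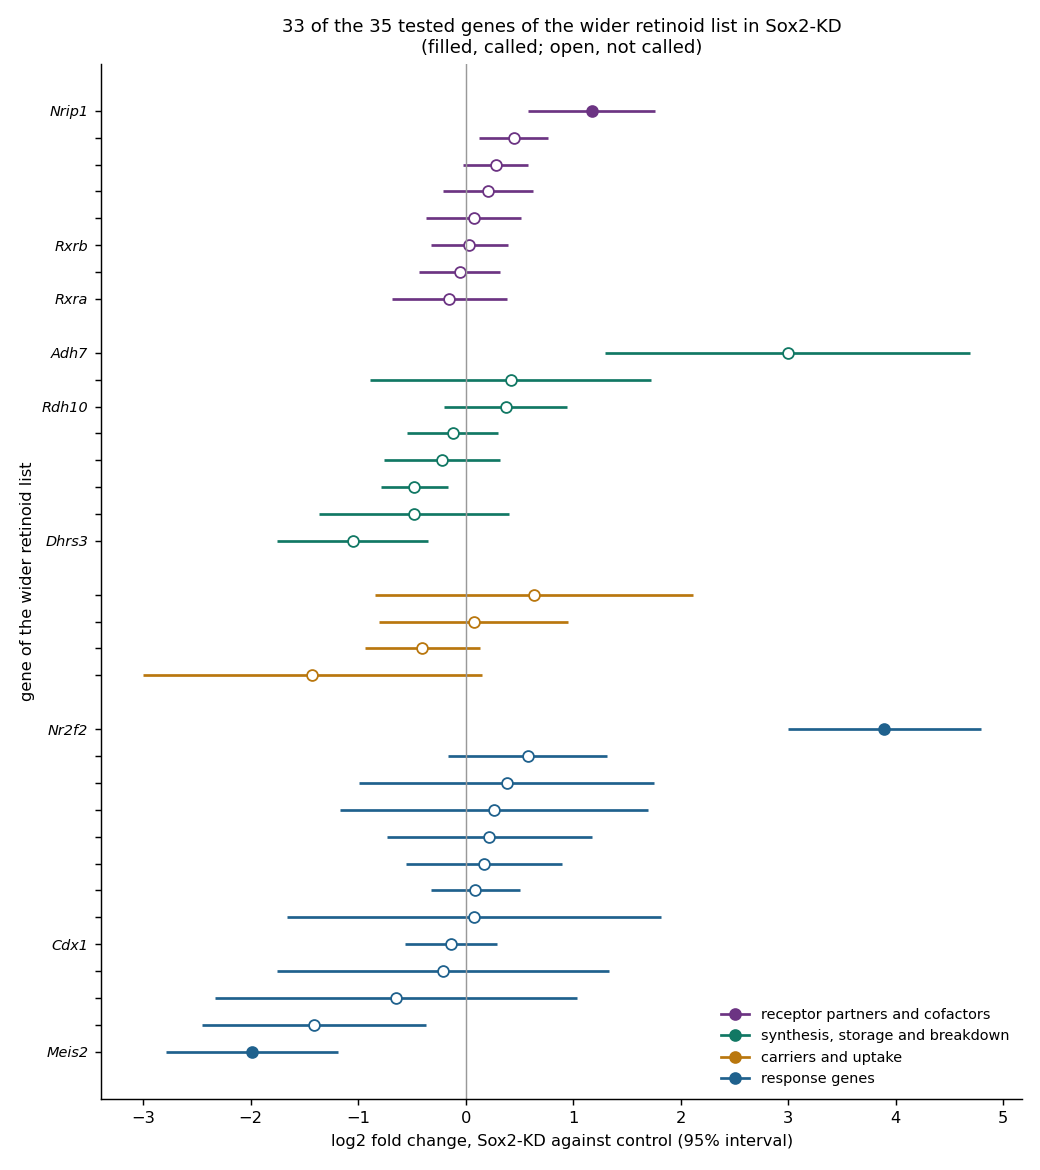
Log2 fold change in Sox2-KD against the control, with 95% intervals, for 33 of the 35 tested genes of the wider retinoid list, grouped by role (filled, called; open, not called), with the genes described in the text labelled. Nr2f2 (3.89) and Nrip1 (1.17) are called higher and Meis2 (-1.99) lower.

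The genes whose log2 CPM followed Rarb most closely over the 8 libraries, out of 12523 genes with an average log2 CPM over 1, were Galnt12 (Pearson r 0.973, Spearman rho 0.952), Aacs (r 0.969, rho 0.976) and Rnf4 (r 0.961, rho 0.952). For Crabp1 they were Sik1 (r 0.990, rho 1), Aagab (r 0.977, rho 1) and Snrnp27 (r 0.959, rho 0.929). These values describe 8 libraries in 4 groups, chosen as the highest of many, and carry no test.

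Some markers of other cell types moved with Rarb in Sox2-KD. The summed level of 10 trophectoderm markers was 94.4 and 113 CPM in the control libraries and 195 and 336 in Sox2-KD. Of 8 tested markers 5 (Gata3, Eomes, Krt8, Krt18 and Krt7) were called higher, where 4.32% of all tested genes were called. Gata3 and Krt7 had at most 6 and 5 counts in any library outside Sox2-KD. They passed the filter on low counts only through the Sox2-KD libraries, so that their calls cannot be set against the 4.32%. The lists were also chosen with earlier results of these data known, and the counts of called markers are description only. Krt8, at 17.9 CPM in the control and 140 in Sox2-KD, and Krt18, at 3.07 and 62.1 CPM, had the largest rises in CPM of these markers. Together these keratins rose by more than the sum did, so that the sum of the remaining markers of the list did not rise. No tested marker outside the 5 was called, and Cdx2 and Tfap2c were lower. Cdx2 was at 27.4 CPM in the control and 6.16 in Sox2-KD (log2 fold change -2.15, edgeR adjusted p = 0.0521). Tfap2c was at 43.2 and 30.6 CPM (-0.50, edgeR adjusted p = 0.398). The sum of 10 primitive and visceral endoderm markers was 13.5 to 14.8 CPM in the control and 49.8 to 84.9 in Sox2-KD. Of 6 tested markers 2 (Gata6 and Dab2) were called higher, and Dab2, at 0.768 and 44.6 CPM, had the largest rise. Gata6 had 10 counts in shHnrnpk-labelled replicate 1 and at most 5 in other libraries outside Sox2-KD, so it passed the filter through Sox2-KD. Its call cannot be set against the share of all genes either. Sox17 (log2 fold change 2.10), Hnf4a (0.57) and Pdgfra (0.39) were higher without a call, and Gata4 (-0.25) was lower. The 4 untested markers, Sox7 among them, had at most 6 counts in any library. In the shHnrnpk-labelled libraries the trophectoderm and endoderm sums were 108 to 142 and 17.8 to 32.5 CPM. Replicate 2 of that group held 1463 Cdx2 and 508 Hnf4a counts, against 346 and 224 in replicate 1. In Cdk9-KD the sums reached no more than 98.9 and 18.5 CPM. The trophectoderm sum in Cdk9-KD covers 2 called markers of opposite sign out of 8 tested, where 0.139% of all tested genes were called. Eomes was at 16.9 CPM against 3.20 in the control (log2 fold change 2.39, edgeR adjusted p = 0.0191). With 9.10 CPM in Sox2-KD, its rise was not particular to that group. Tfap2c was at 10.5 against 43.2 CPM (-2.04, edgeR adjusted p = 0.0416).

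Of the other lists, Sox1, a neural ectoderm gene, was called lower in Sox2-KD (100 and 52 counts in the control, 10 and 9 in Sox2-KD). It was the 1 called of 4 tested markers of that list, beside 4.32% of all tested genes. None of 4 tested mesoderm markers was called by edgeR, 1 of them at an unadjusted p under 0.05, beside 19.3% of all tested genes. Of 5 tested fibroblast markers Lum alone was called higher. It had 23 and 13 counts in Sox2-KD and at most 2 elsewhere, so it passed the filter only through Sox2-KD. Col1a2 lay the other way, with 32 and 24 counts in the control and 4 and 1 in Sox2-KD (log2 fold change -3.44, edgeR adjusted p = 0.0565). Col1a1 (-0.50) and Thy1 (-0.28) were lower and Twist1 (0.46) higher, without a call. The part of these cell types in the Rarb and Crabp1 values was not tested, and in bulk RNA more cells of a type and more RNA per cell cannot be told apart.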

How the data were processed

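Libraries of polyA RNA were aligned by the authors with STAR and counted per gene against GENCODE vM23 (mm10); the submitters' processing notes name STAR 2.7.9a and featureCounts 2.0.1. The deposited values are counts per gene for each library, before any normalization. The strand setting and the handling of reads shared by genes are not given in the sources used here.

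Gene symbols and positions were taken from GENCODE vM21 (GRCm38), and promoter sequences from RefSeq (GRCm38.p6). Counts were tested with edgeR 4.0.16 in R 4.3.3 (TMM normalization, quasi-likelihood test, all 8 libraries in 1 fit) over the 16504 genes that passed filterByExpr, with a minimum count of 10. Calls needed an adjusted p under 0.05 and an absolute log2 fold change over 0.6, the limits in the study's methods. P-values rest on a spread per gene that was estimated over all 4 groups of 2 libraries, with information shared between genes. They do not measure the spread of the 2 compared groups alone. CPM used TMM-scaled totals, and intervals on counts cover counting error only. The procedure was tested on simulated data, in which the changed genes had higher levels than Rarb in the control and smaller changes. That test does not cover calls at counts as low as those of Rarb.

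The genes named were the 8 members, the genes of the wider list called against the control, fixed genes of that list (Rxra, Rxrb, Rxrg, Rdh10, Dhrs3, Hoxb1 and Cdx1), markers of other cell types, and the 3 genes most like each called member. Some genes of that list are counted but not reported here by name. Members and lists were chosen with earlier results of these data known. Alternatives were DESeq2 1.42.0, other scaling, other filters on low counts, a fit of the 4 libraries compared, a replicate block, a likelihood ratio test, no minimum fold change, and leaving out each library. Figures were drawn with matplotlib 3.10.9.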

Additional observations from a re-analysis of the deposited data

How the results depend on the processing

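The count of called members in Sox2-KD against the control, 1 as reported, was 2 in DESeq2, in the fit of the 4 libraries compared and in the likelihood ratio test, where Crabp1 joined Rarb, and 0 with at least 10 counts required in every library, a filter that removes Rarb. Leaving out a library gave 0 to 2. Against Cdk9-KD, 2 as reported, it was 1 in the fit of 4 libraries and fell in some fits with a library left out. With at least 10 counts in every library it was 0, because that filter removes both Rarb and Crabp1. Against the shHnrnpk-labelled libraries, 0 as reported, it was 1 in the likelihood ratio test (Rarb). The other 3 comparisons kept a count of 0 under all 17 alternatives each. The wider list had 5 calls instead of 3 in the likelihood ratio test and 1 to 3 with a library left out.

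Of the 3 targeted genes, 1 was called as reported, 2 in DESeq2 and the likelihood ratio test, 0 with library totals, with no filter, with 10 counts in every library and in the fit of 4 libraries, and 0 to 2 with a library left out. These alternatives, and those of Nr2f2, Nrip1, Meis2 and the differences between groups other than the control, were added after the data were seen. Nrip1 also lost its call with no filter on low counts (log2 fold change 1.13, edgeR adjusted p = 0.0512).

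The fit as reported did not pair the libraries by replicate number. Correlations of same-numbered deviations between groups ran from -0.223 to 0.21, the highest between the control and Sox2-KD. With no reference to set them against, they do not decide whether same-numbered libraries share a batch. The replicate block gave 2 called members in Sox2-KD against the control (Crabp1, adjusted p = 0.0458) and 0 targeted genes, and left 2 called against Cdk9-KD.

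Signs turned only with a library left out, and only for uncalled values. The log2 fold changes in Sox2-KD then ran from -0.23 to 0.00095 for Rara, -0.40 to 0.25 for Rarg and -1.82 to 0.65 for Crabp2. In the shHnrnpk-labelled libraries they ran from -0.62 to 0.086 for Rara, -0.016 to 1.32 for Crabp2 and -0.70 to 0.031 for Hnrnpk. In Cdk9-KD they ran from -1.34 to 1.25 for Crabp1 and -0.96 to 0.37 for Crabp2.

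Over all genes, the calls in Sox2-KD against the control, 713 as reported, fell to 144 to 343 when a control or Sox2-KD library was left out and were 1350 in the likelihood ratio test. Against Cdk9-KD, 1210 as reported, they were 1869 in that test and 337 to 1286 with a library left out. Against the shHnrnpk-labelled libraries, 974 as reported, they were 1690 in that test and 90 to 1100 with a library left out. In Cdk9-KD against the control, 23 as reported, they were 226 in DESeq2, 279 in the likelihood ratio test, 15 with the replicate block and 0 to 33 with a library left out. The shHnrnpk-labelled libraries had 0 calls against the control as reported, 83 in DESeq2 and 87 in the likelihood ratio test, and against Cdk9-KD 0, 53 and 67. The causes were not tested. Between 16.9 and 18.2 counts make 1 CPM, which limits Cyp26a1, Stra6, Aldh1a2 and Crabp2.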
